A study of Homo sapiens with 28 samples.

Results

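The broad H3K36me2 domains of unirradiated U2OS cells were the peaks of 5 kb or more in the replicate 1 list of wild-type cells without UV that overlapped a replicate 2 peak of the same condition by at least 1 bp. This rule kept 4132 of the 500000 peaks of that list, and the 10 lists of the series held 5000000 peaks in all. Members were selected on their width in replicate 1 and on their overlap with replicate 2, so both are descriptions here and not findings. H3K36me2 was profiled by chromatin immunoprecipitation and sequencing (ChIP-seq) in wild-type U2OS, a human osteosarcoma cell line, with an anti-H3K36me2 antibody, in 2 biological replicates without UV and 2 replicates collected 3 h after UV-C at 20 J/m2. The remaining 6 lists came from an anti-FLAG ChIP in U2OS cells with an ASH1L knockout (ASH1L-/-) that were transfected with the FLAG-tagged carboxy-terminal domain (CTD) of ASH1L, with 3 biological replicates without UV and 3 replicates collected 3 h after the same dose. In these the control for peak calling was an anti-FLAG ChIP from the same knockout cells transfected with empty vector, and every H3K36me2 list was called against input DNA of wild-type cells. The CTD is a fragment expressed from a transfected plasmid, so its peaks are not those of endogenous ASH1L.

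H3K36me2 is dimethylation of lysine 36 of histone H3. NSD1, NSD2, NSD3 and ASH1L deposit it, SETD2 deposits the trimethylated form in transcribed gene bodies, and KDM2A and KDM2B remove it. Dimethylation is typically spread over long stretches of intergenic and genic chromatin, where it opposes methylation of lysine 27 by Polycomb repressive complex 2 and is read by the PWWP domain of the DNA methyltransferase DNMT3A. The ASH1L CTD used here holds the catalytic SET domain together with reader domains for histones.

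The question of the H3K36me2 arm was how the mark differs between unirradiated cells and cells at 3 h of repair. For each domain, its bases under a peak, the number of peaks that overlapped it (its pieces) and the widest piece were taken in the other lists. A domain was called whole in a list when 1 peak covered at least 90% of it. Stretches of the 2 widest domains that lay in 3 or more pieces in both 3 h lists are shown first, because they show the chromatin that stayed under a peak and the chromatin that did not. In each domain, 200 bases were read from the plus strand of hg38 at the middle of the widest stretch covered in no UV replicate 2 and both 3 h lists (kept), and at the middle of the widest stretch covered in no UV replicate 2 and in neither 3 h list (lost). Capitals mark CG dinucleotides, the sites of DNA methylation.
AQP1 domain, kept, chr7:30910650-30910849: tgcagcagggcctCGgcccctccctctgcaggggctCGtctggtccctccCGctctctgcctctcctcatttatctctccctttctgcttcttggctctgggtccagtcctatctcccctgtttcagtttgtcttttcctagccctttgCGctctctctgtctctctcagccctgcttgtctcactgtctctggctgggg
AQP1 domain, lost, chr7:30921178-30921377: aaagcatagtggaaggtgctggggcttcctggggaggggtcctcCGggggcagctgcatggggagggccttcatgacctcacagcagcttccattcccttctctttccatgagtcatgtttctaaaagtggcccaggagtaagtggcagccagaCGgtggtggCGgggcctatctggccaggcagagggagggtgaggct
TNS1 domain, kept, chr2:218026514-218026713: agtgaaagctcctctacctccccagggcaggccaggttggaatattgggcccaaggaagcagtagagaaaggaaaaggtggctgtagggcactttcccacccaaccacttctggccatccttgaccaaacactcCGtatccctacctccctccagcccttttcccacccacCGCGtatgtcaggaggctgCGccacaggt
TNS1 domain, lost, chr2:218019054-218019253: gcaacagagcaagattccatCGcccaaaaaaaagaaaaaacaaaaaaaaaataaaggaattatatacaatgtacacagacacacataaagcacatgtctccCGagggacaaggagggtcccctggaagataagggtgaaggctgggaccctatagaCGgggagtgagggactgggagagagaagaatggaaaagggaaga
None of the 4 windows held a base of a protein-coding exon. The AQP1 windows lay in the gene model ENSG00000250424, which overlaps AQP1, and the lost window lay in AQP1 as well, in an intron. Both TNS1 windows were intronic. In the AQP1 domain the kept stretch was 7405 bp wide with 59.9% GC, and the lost stretch was 454 bp wide with 60.4% GC. In the TNS1 domain the kept stretch was 3596 bp wide with 55.2% GC, and the lost stretch was 501 bp wide with 46.1% GC. The lost stretch was the less GC-rich in the TNS1 domain and not in the AQP1 domain.

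The domain at AQP1, the gene of a water channel, was the widest, at 26998 bp (chr7:30902032-30929029), and spanned the AQP1 start, with 3261 bp in protein-coding exons. It was covered to 91.4% in no UV replicate 2, 81.3% in 3 h replicate 1 and 85.4% in 3 h replicate 2, in 4, 6 and 6 pieces. In the intron of TNS1, which codes for a focal adhesion protein that binds actin, an 18956 bp domain (chr2:218010655-218029610) was covered to 94.9% in no UV replicate 2, 68.2% in 3 h replicate 1 and 78.2% in 3 h replicate 2. Its widest piece was 11957 bp in no UV replicate 2 and 3808 and 4618 bp at 3 h. A domain of 18279 bp (chr2:28352120-28370398) lay 13.2 kb from BABAM2, the gene of a subunit of the BRCA1-A deubiquitinase complex. This domain had the lowest 3 h cover of the 10 widest, at 60.8% and 66.4%, against 97.2% in no UV replicate 2. It lay in 2 pieces in no UV replicate 2 and in 7 and 8 pieces at 3 h. In all 3 domains the 3 h lists had more pieces and less cover than no UV replicate 2. The choice of domains in 3 or more pieces at 3 h favours both, since pieces need gaps between them.

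Some wide domains stayed under 1 or 2 peaks. In an intron of RAD51B, a gene of homologous recombination, a 14313 bp domain (chr14:68500745-68515057) was covered to 95.5% in no UV replicate 2, 99.9% in 3 h replicate 1 and 97.1% in 3 h replicate 2, in 2, 1 and 1 pieces. A domain of 16708 bp (chr16:88315029-88331736), 51.2 kb from ZNF469, was covered to between 95.4% and 96.2% in all 3 lists, in 2 pieces each. The 13235 bp domain at chr10:29871346-29884580, 128.2 kb from JCAD, was under 1 peak in each 3 h list, with 100% and 98.8% cover, and under 2 peaks in no UV replicate 2, with 94.7%. These 3 were the widest domains whole in both 3 h lists, and their cover in no UV replicate 2 lay within the range of the 3 split domains. Among the 10 widest domains, the one at HS1BP3 on chromosome 2 (chr2:20560109-20579283, 19175 bp) also stayed between 96.2% and 98.3% covered in the 3 lists. The lncRNA gene LINC00595 on chromosome 10 held a 21550 bp domain with 97.7%, 88.8% and 96.0% in no UV replicate 2 and in 3 h replicates 1 and 2. Domains in introns and exons of NRP2, a neuropilin receptor gene, and of ZMYND8, a chromatin reader gene, were covered to 86.4%, 83.6% and 72.3% and to 82.7%, 69.4% and 77.5% in the same order. The NRP2 domain lay in 5, 5 and 7 pieces and the ZMYND8 domain in 5, 8 and 6, so both were split at 3 h and both were already in 5 pieces without UV. Of the 10 widest, 5 lay at least in part in a protein-coding gene and 6 were on chromosome 2.

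The domains measured 28.2 Mbp in sum, which was 6.15% of the bases in the no UV replicate 1 list and 0.968% of the assembled genome. Their median width was 6145 bp, the quartiles were 5459 and 7436 bp, and 36 domains reached 15 kb. The fold enrichment over input was low and narrow in range, with a median of 2.17 and quartiles of 2.03 and 2.34, so these were broad rather than tall peaks. The narrower recurring peaks, that is the 317283 peaks under 5 kb that also overlapped replicate 2, had a median width of 829 bp and a median fold enrichment of 1.92. A −log10 q of at least 1.3 was reached by 2147 domains (52.0%) and by 13.9% of the narrower recurring peaks. One peak of 5031 bp on chromosome 14 (chr14:58121262-58126292) met the width and overlapped no replicate 2 peak. At the width threshold, the nearest members had exactly 5000 bp and fold enrichments of 1.90 to 2.19, and the nearest peaks outside had 4998 or 4999 bp and fold enrichments of 2.13 to 2.42.

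Domains were unevenly spread over the genome. The density was highest on chromosomes 22 and 17, with 19.0 and 17.2 kb of domain per Mbp, and lowest on chromosomes X and 13, with 0.692 and 0.904 kb per Mbp. The narrower recurring peaks were also lowest on chromosomes X and 13 (20.6 and 61.0 kb per Mbp), and had 119 and 117 kb per Mbp on chromosomes 22 and 17. Copy number of the U2OS chromosomes was not measured here. The median gap to the next domain was 118 kb, with 1560 of 4109 gaps (38.0%) under 50 kb and 522 under 5 kb. Gaps between narrower recurring peaks were not computed, so these values have no background. The window of 1 Mbp with the most domain bases began at 68 Mbp on chromosome 14, in and beside RAD51B, and held 29 domains with 221 kb. Next came windows at 72 Mbp on chromosome 14, which holds DPF3, and at 77 Mbp on chromosome 10, which holds part of KCNMA1, with 139 and 138 kb.

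Protein-coding genes held 36.7% of the domain bases, 40.2% of the bases of narrower recurring peaks and 44.7% of the genome. Long non-coding RNA genes held 22.5% of the domain bases against 18.6% of the genome, and 44.5% of the domain bases lay in no annotated gene against 39.2% of the genome. Exons of protein-coding genes took 2.91% of domain bases and 3.73% of the genome. Promoters, taken as 1 kb on either side of a protein-coding start, took 1.22% of domain bases and 1.26% of the genome. In narrower recurring peaks promoters took 1.17% of the bases. The domains were intergenic or intronic for the most part, as is the genome. A promoter was overlapped by 227 of 4132 domains (5.49%), a count that has no background here. Domain centres inside genes were spread along them, with between 142 and 175 of 1610 centres in each of 10 equal parts of the gene's length.

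A domain overlapped 1146 of 19970 protein-coding genes (5.74%). This share rose with gene length, from 1.39% of genes under 10 kb to 23.9% of genes of 300 kb or more. RAD51B held the most domain bases, with 23 domains and 178 kb, or 19.5% of the gene. KCNMA1, which codes for the pore-forming subunit of the large-conductance calcium-activated potassium channel, held 18 domains and 127 kb. LRMDA, a leucine-rich repeat gene linked to melanocyte differentiation, held 17 domains and 109 kb. DPF3, the gene of a histone-reading subunit of BAF chromatin remodelling complexes, held 12 domains that made up 32.6% of the gene. The other genes of the first 10 were HIVEP3, a zinc finger gene that regulates RUNX2 in osteoblasts, FRMD4A, a scaffold gene of cell polarity, ME3, a mitochondrial malic enzyme gene, FSTL4, a follistatin-like gene, KCNQ1, a voltage-gated potassium channel gene, and PLB1, a phospholipase B gene. These 6 held between 5 and 8 domains each.

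Cover at 3 h differed among these genes. In RAD51B the domain bases under a peak were 87.2% in no UV replicate 2, 80.7% in 3 h replicate 1 and 85.6% in 3 h replicate 2, and 7, 2 and 5 of its 23 domains were whole. The largest gap of the 10 genes was at HIVEP3, with 91.2% without UV and 73.8% and 74.0% at 3 h. KCNQ1 followed with 89.9%, 80.0% and 76.6%. PLB1 had the highest mean cover of the 2 lists at 3 h, with 96.2% without UV and 90.2% and 92.5% at 3 h. For 8 of the 10 genes both 3 h values were below no UV replicate 2. The exceptions were ME3, with 88.0% without UV and 91.2% and 83.9% at 3 h, and FSTL4, with 86.8% without UV and 86.9% and 90.4% at 3 h. There was 1 unirradiated list to compare with, so no gene was tested.

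Members of the gene lists that held a domain were counted, beside the 5.74% of all protein-coding genes with one. No gene of 16 in H3K36 methylation, which includes NSD1, SETD2 and ASH1L itself, held a domain, nor did any of 26 nucleotide excision repair genes or of 17 actin cytoskeleton and adhesion genes. Their median lengths were 114, 33.1 and 83.9 kb, and peaks of the no UV replicate 1 list covered 8.16%, 5.22% and 13.5% of their bases. Of 22 bone and mesenchymal genes, 3 held a domain, namely RUNX2, the master regulator of osteoblasts, ALPL, the bone alkaline phosphatase gene, and TGFBI, an extracellular matrix gene. Peaks covered 21.6% of the bases of that list, against 15.7% of the genome and 11.9% of the neuronal genes below. The TGFBI domains spanned 50.9% of the gene and were covered to 93.8% in no UV replicate 2 and to 84.7% and 83.6% at 3 h. The 4 RUNX2 domains were covered to 78.7% without UV and to 76.7% and 82.8% at 3 h, so the 2 conditions overlapped there. Of 16 neuronal genes, whose median length was 1322 kb, CTNNA2, DLG2, MACROD2 and NRXN3 held between 1 and 3 domains each, over at most 0.756% of the gene. Of all genes of 300 kb or more, 23.9% held a domain. The lists were short, so a count of 0 is near the share over all genes, and the counts were not tested and show no difference between the lists.

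The number of wide peaks was lower in both 3 h lists. Peaks of 5 kb or more numbered 4133 and 3297 without UV and 1961 and 2001 at 3 h, a mean of 3715 ± 591 (SD, n = 2) against 1981 ± 28.3 (SD, n = 2), or 0.533 times as many. The bases in them were 28.2 and 22.4 Mbp without UV and 12.5 and 12.7 Mbp at 3 h, or 0.498 times. The lowest unirradiated list was above the highest 3 h list in both measures. An exact two-sided permutation test gave p = 0.333 for each, the smallest that 2 against 2 lists can give. Every list was cut by the authors at 500000 peaks, and the lists covered 458 and 441 Mbp without UV and 401 and 414 Mbp at 3 h, so the 3 h lists were also smaller in total. Per base listed, 6.15% and 5.07% lay in peaks of 5 kb or more without UV and 3.12% and 3.06% at 3 h.

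Followed one by one, the domains were still largely under peaks at 3 h, but in more and smaller pieces. Peaks of no UV replicate 2 covered 83.6% of the domain bases, and peaks of the 3 h replicates covered 75.5% and 75.4%. The gap was 8.08 percentage points, and the SD between the 3 h lists was 0.0647 points. Between the unirradiated lists, each followed in the domains of the other, the SD was 2.62 points. Those 2 values came from different sets of domains (4132 and 3296), so that SD does not measure spread on the same regions. The mean number of pieces was 2.12 in no UV replicate 2 and 2.45 and 2.47 at 3 h. A domain was under a single peak in 1211 cases in no UV replicate 2 and in 745 and 718 cases at 3 h, and under 3 or more in 1284, 1758 and 1790 cases. The widest piece spanned a median of 61.8% of the domain in no UV replicate 2 and 49.2% and 49.3% at 3 h. A single unirradiated list was left for this comparison, so no test was made of it, and no UV replicate 2 had also been used in choosing the members. The number of pieces depended on the peak threshold: with followed peaks at −log10 p of 3 or more, or −log10 q of 1.3 or more, 3 h minus no UV replicate 2 was −0.104 and −0.176 pieces, the opposite direction. The gap in cover was −14.4 and −17.8 points there.

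**Figure D1:**
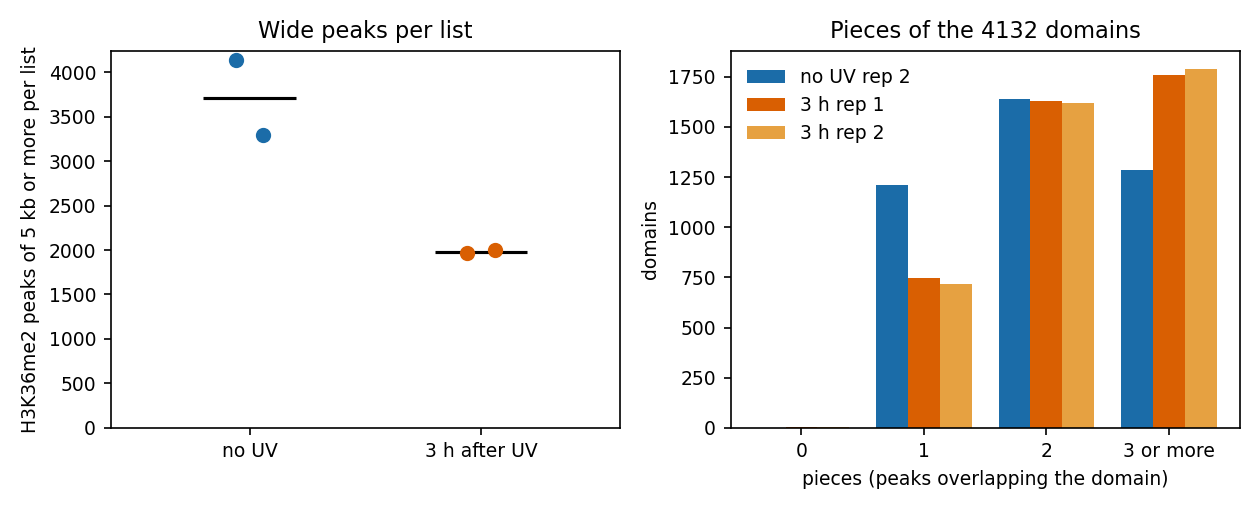
Left, number of H3K36me2 peaks of 5 kb or more in each list, as points, with the mean as a line. Right, number of domains by the number of peaks that overlapped them, in no UV replicate 2 and the 3 h replicates; domains in 3 or more pieces number 1284 without UV and 1758 and 1790 at 3 h.

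Counted by call, 995 domains (24.1%) were whole in no UV replicate 2, against 35.5% of all 321415 recurring peaks of the source list. Whole in both 3 h lists were 161 domains (3.90%), against 11.2% of recurring peaks. Domains whole in no UV replicate 2 and in neither 3 h list numbered 668 (16.2%, background 17.7%), and the opposite case, whole in both 3 h lists and not in no UV replicate 2, numbered 55 (1.33%, background 4.68%). No domain was without a covered base in both 3 h lists, where the background was 14.3%, and 2 and 4 domains were without one in 3 h replicates 1 and 2. Split into 3 or more pieces in both 3 h lists were 1045 domains (25.3%, background 0.510%). At least 50% was covered in both 3 h lists in 3582 domains (86.7%, background 40.5%). Width bears on each of these counts, since a wide region meets more peaks and more gaps than a narrow one. Domains and recurring peaks alike had to overlap no UV replicate 2, which favours that list over the 3 h lists, more so in narrow peaks.

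Both 3 h lists covered less of the domain than no UV replicate 2 in 2300 domains (55.7%), against 47.1% of recurring peaks. Both covered more in 802 domains (19.4%), against 19.0%, which is near the background. Lower cover at 3 h was also found in narrower recurring peaks. Mean cover at 3 h minus cover in no UV replicate 2 was −23.2 percentage points in recurring peaks under 1 kb, between −11.2 and −7.43 points in those of 1 to 5 kb, and −7.46, −8.51 and −9.88 points in domains of 5 to 7 kb, 7 to 10 kb and 10 kb or more. Every recurring peak had to overlap no UV replicate 2 and none had to overlap a 3 h list, which favours no UV replicate 2. That rule kept 4132 of 4133 peaks of 5 kb or more and 321415 of all 500000 peaks. It thus weighs more on narrow peaks, and these gaps cannot rank the widths. Relative to the whole genome, the domains were covered 5.52 times as densely in no UV replicate 2 and 5.48 and 5.30 times at 3 h, which is a smaller difference between conditions than that in cover itself. With no UV replicate 2 cut from its weakest peaks up to the mean number of bases in the 3 h lists, the gap was −7.63 points. This cut takes out whole peaks and leaves the borders of the others in place, so it cannot decide the part of list size.

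Starting from the wide peaks of each other list gave an order that depended on the source. The 3296 domains of no UV replicate 2 were covered to 87.3% in no UV replicate 1 and to 74.7% and 75.1% at 3 h. The 1961 domains of 3 h replicate 1 were covered to 86.6% and 83.6% by the unirradiated lists and to 83.5% by 3 h replicate 2. The 2001 domains of 3 h replicate 2 were covered to 86.0% and 83.0% by the unirradiated lists and to 83.6% by 3 h replicate 1. Chromatin in wide peaks at 3 h was thus about as densely covered without UV as in the other 3 h list, while chromatin in wide peaks without UV was less covered at 3 h. The unirradiated lists also covered more bases in all, at 458 and 441 Mbp against 401 and 414 Mbp. The sources differed in their number of domains too, and the part of either in this order was not tested.

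Along the domain, the lower cover at 3 h was seen at every position. In the middle 50% of the domain width, cover was 85.5% in no UV replicate 2 and 78.0% and 78.1% at 3 h. In the first and last 5% it was 71.2%, 61.1% and 60.4%. Just outside the borders, within 10% of a width, it fell to 35.9%, 28.5% and 27.6%, and at 25% to 50% of a width outside it was 54.2%, 47.6% and 48.0%. Since the borders were set by replicate 1, a dip beyond them follows from the rule. The gap between conditions was −10.5 points at the edges, −7.51 points in the middle and −6.46 points in the outer flanks.

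The gap between conditions varied with the base composition of the domains. Domains had a median GC content of 48.2%, the narrower recurring peaks 47.2% and the genome as a whole 40.9%. In 5 groups of equal number ordered by GC, cover in no UV replicate 2 was 74.0%, 80.6%, 84.3%, 87.0% and 90.6% from the lowest to the highest GC. In the same groups cover was 75.0%, 78.1%, 76.5%, 76.1% and 72.1% in 3 h replicate 1 and 75.8%, 77.8%, 76.4%, 75.8% and 71.7% in 3 h replicate 2. The mean 3 h cover was therefore 1.38 points above no UV replicate 2 in the group lowest in GC and 18.7 points below it in the highest. Whole domains went the same way: in the highest group 44.5% were whole in no UV replicate 2 and 10.0% and 10.2% at 3 h, and in the lowest group 7.98%, 7.62% and 7.86% were. In the same GC ranges, domains of no UV replicate 2 gave another order at the low end. In the lowest range they were covered to 82.4% by no UV replicate 1 and to 76.4% and 76.8% at 3 h. In the highest range the values were 88.0%, 67.3% and 68.5%. Cover by no UV replicate 1 lay between 82.4% and 89.6% over the 5 ranges, a flatter course than that of no UV replicate 2. The direction in the lowest range thus depended on the source list. The split by GC was chosen after the values were seen.

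Narrower recurring peaks in the same GC ranges had gaps of −5.36 points in the lowest range and −31.5 points in the highest. These peaks were kept only if they overlapped no UV replicate 2, the list from which the gaps were taken. Part of each gap therefore follows from the rule, and how large a part was not tested. Bases under peaks as a whole had 47.0% and 47.5% GC in the unirradiated lists and 46.2% and 46.2% at 3 h. Domains of the 2 unirradiated lists had median GC contents of 48.2% and 49.3%, and those of the 3 h lists 46.8% and 46.6%. Within the members, bases covered in all 3 followed lists (59.5% of the bases) had 50.4% GC, those covered in no UV replicate 2 and in neither 3 h list (7.70%) had 48.7%, and those covered in none (5.89%) had 43.3%. The part of GC-dependent recovery of DNA in these differences was not tested, and the lists carry no read depth.

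The gap was wider in domains that overlapped a protein-coding gene than in the others. The 1635 domains that overlapped a protein-coding gene were covered to 83.8% in no UV replicate 2 and to 73.5% and 72.8% at 3 h. The other 2497 were covered to 83.4% and to 76.9% and 77.1%. Of these, the 1506 that overlapped no annotated gene of any kind were covered to 83.4% and to 76.2% and 76.6%. Domains over a promoter went from 87.0% to 72.4% and 71.7%. Median GC was 49.5% in domains over a protein-coding gene, 47.5% in the others and 53.0% in those over a promoter, and its part in these differences was not tested.

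The ASH1L-CTD arm asked where the fragment binds with and without UV. The ASH1L gene itself, which checks the labels, carried the peak of highest fold enrichment in all 6 CTD lists, at 26.7, 5.87 and 41.2 without UV and 18.9, 18.1 and 18.8 at 3 h. Elsewhere no peak exceeded 3.67. The transfected plasmid carries ASH1L coding sequence, so plasmid and gene cannot be told apart in these values. Replicate 2 without UV had the lowest of them. The wild-type H3K36me2 lists had an ASH1L maximum between 1.91 and 2.46, and no domain overlapped the gene.

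CTD peaks covered a minor part of the domains. Domain bases under a CTD peak were 27.5%, 17.6% and 12.4% without UV and 18.1%, 18.1% and 25.1% at 3 h, in replicates 1, 2 and 3. The means were 19.2% ± 7.66 (SD, n = 3) and 20.4% ± 4.06 (SD, n = 3). The replicates overlapped, with no UV replicate 1 the highest of the 6 lists and no UV replicate 3 the lowest, and an exact two-sided permutation test gave p = 0.8, where the smallest possible was 0.1. Leaving out no UV replicate 3 turned the difference from 1.24 to −2.14 points, and leaving out 3 h replicate 3 turned it to −1.10 points. Leaving out no UV replicate 1 raised it to 5.40 points. The 3 h lists were called against a pooled empty-vector control and the unirradiated lists against unpooled controls, which cannot be told apart from UV here.

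All 6 CTD lists covered the domains more densely than the genome. The ratio of the domain share to the genome share was 2.40, 1.78 and 1.35 in unirradiated cells and 1.74, 1.82 and 2.32 at 3 h. The geometric mean was 1.87 (mean log2 ratio 0.90 ± 0.31, SD, n = 6), above 1 in 6 of 6 lists, with an exact two-sided sign-flip p = 0.0312, the smallest that 6 lists can give. The test takes the lists as independent, although the 3 h lists were called against a pooled control. The genome share also counts assembled bases that the authors excluded from their alignments, which favours a ratio above 1. Between conditions the ratios were 1.84 ± 0.529 (SD, n = 3) and 1.96 ± 0.313 (SD, n = 3), with an exact permutation p = 0.9. Against all recurring H3K36me2 peaks in place of the genome, the geometric mean was 1.06 and the exact sign-flip p = 0.25, with no UV replicate 3 at 0.864 and the other lists between 1.05 and 1.20. The higher density was therefore not shown to be particular to the wide domains among H3K36me2 peaks.

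Inside the domains, CTD cover was higher in bases that both 3 h H3K36me2 lists covered than in bases that neither did. It was 29.3%, 18.7% and 13.1% without UV and 18.8%, 19.0% and 26.7% at 3 h in the bases covered by both. In the bases covered by neither it was 23.8%, 15.1% and 10.8% without UV and 16.1%, 15.9% and 21.9% at 3 h. All 6 lists had the same direction, with gaps of 2.30 to 5.52 points, and these gaps were not tested. The order did not hold for every split of the bases by H3K36me2 cover. Bases covered in no UV replicate 2 and in neither 3 h list had CTD cover of 27.7%, 16.5% and 11.8% without UV and 16.86%, 16.97% and 24.997% at 3 h. Bases covered in both 3 h lists and not in no UV replicate 2 had 20.7%, 15.8% and 11.7% without UV and 17.2%, 17.7% and 18.5% at 3 h, which was lower in 4 of the 6 CTD lists. GC content was 48.7% in the former bases and 44.5% in the latter, and its part in these differences was not tested. CTD cover in the middle of the domain was 19.4% on average without UV and 20.7% at 3 h, it was 13.1% and 14.8% just outside the borders, and 16.5% and 17.6% in the outer flanks.

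Replicates also differed in how CTD cover followed GC. From the lowest to the highest GC group, cover rose from 17.2% to 37.5% in no UV replicate 1 and from 15.9% to 34.4% in 3 h replicate 3. It went from 15.6% to 19.0% in no UV replicate 2, from 14.0% to 12.4% in no UV replicate 3, from 17.6% to 18.8% in 3 h replicate 1 and from 18.1% to 16.5% in 3 h replicate 2. The 2 lists with the steepest rise were those with the highest cover of the domains, 1 from each condition, and their peaks had 47.7% and 47.9% GC against 43.8% to 45.2% in the others. Their part in the differences between replicates was not tested.

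CTD peaks of 5 kb or more were few, at 213, 3 and 17 in unirradiated cells and 18, 22 and 58 at 3 h. The domain most covered by the CTD on average lay 12.1 kb from NCS1, the gene of a neuronal calcium sensor (chr9:130154451-130160315, 5865 bp, in no annotated gene). Its CTD cover was 81.2%, 58.1% and 35.9% without UV and 32.6%, 26.4% and 49.8% at 3 h. Next was a 5202 bp domain 6.36 kb from DNAJB12, a chaperone gene (chr10:72321268-72326469), with 83.9%, 59.6% and 24.3% in unirradiated cells and 30.7%, 16.4% and 60.3% at 3 h. The third, in the lncRNA gene SPRY4-AS1 (chr5:142384286-142389587, 5302 bp), had 74.3%, 46.3% and 14.2% in unirradiated cells and 35.6%, 53.4% and 47.2% at 3 h. The unirradiated and 3 h values overlapped in all 3, and the domains were chosen for these values.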

How the data were processed

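The authors trimmed reads with Trim Galore (0.6.5), aligned them to hg38 without chromosome Y with BWA (0.7.17-r1188), used Picard, SAMtools (1.7) and bedtools (2.29.2), and called broad peaks with MACS2 (2.2.7.1), per the labels and the study's methods. DNA had been treated with a lesion repair mix before library preparation. Single-end and paired-end H3K36me2 reads were pooled for each replicate. The deposited lists give peak starts and ends, fold enrichment (a ratio over control), and −log10 p-values and q-values, each list cut at 500000 peaks, with a lowest −log10 p of 1.22 to 1.42. They hold no read counts, so depth and counting error are unknown here, and intervals were not computed. Borders of broad peaks with a low fold enrichment (median 2.17 in the domains) can move with depth and with GC-dependent recovery of DNA.

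From these, domains, base cover, pieces and the widest piece were computed in Python (3.11.15) with NumPy (2.4.6) and pandas (2.3.3) and checked against bedtools (2.31.1) and planted intervals. Genes came from GENCODE (44), sequence and GC from hg38. Groups followed the sample labels, which call the replicates biological, and the 28 samples gave 10 lists, since inputs and controls entered the calling. Conditions were compared over lists with exact two-sided permutation tests, and CTD cover with the genome by an exact sign-flip test. Cover, pieces and whole domains at 3 h had 1 unirradiated list to compare with and were not tested. Named domains were the 10 widest, and the 3 widest whole, split or gone at 3 h (none was gone), and the 3 with most CTD cover; named genes were the 10 with most domain bases and the members of 5 lists that held a domain. Members and lists were chosen with earlier results of these data known. Alternatives changed the width, the required overlap, the source list, the peak thresholds, the joining of peaks, the total bases and the replicates. The sequence of the third split domain is not reported here.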

Additional observations from a re-analysis of the deposited data

How the results depend on the processing

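The number of domains was 8152 at 4 kb or more, 1293 at 7 kb or more and 6908 after joining peaks across gaps of 500 bp. The lower cover at 3 h kept its direction under every alternative but 1: it was −12.4 points for domains of no UV replicate 2, −11.2, −14.4 and −17.8 points with followed peaks at −log10 p of 2 or 3 or more and −log10 q of 1.3 or more, and, chosen after seeing the data, −18.7 points in the fifth of domains highest in GC and 1.38 points, reversed, in the lowest. The change in pieces was 0.590 at 7 kb or more and 0.136 at −log10 p of 2 or more, and it reversed to −0.104 and −0.176 at the stricter p and q thresholds, where fewer peaks remain to count. Whole domains moved to −20.7 points for domains of no UV replicate 2. Leaving out either 3 h list gave −8.13 to −8.03 points of cover, 0.326 to 0.345 pieces and −13.4 to −13.2 points of whole domains. The ratio of wide peaks lay between 0.372 and 0.673 (Mbp 0.353 to 0.631) in all settings, and between 0.474 and 0.607 (Mbp 0.444 to 0.566) without replicate 2 or 1. CTD cover at 3 h minus no UV reversed to −0.0021 points, and its ratio to −0.0363, with CTD peaks at −log10 p of 2 or more; leaving out 1 list gave −2.14 to 5.40 points and −0.128 to 0.398 in the ratio. CTD density over the genome was 1.77 to 1.99 without 1 list, with exact sign-flip p = 0.0625, the smallest that 5 lists allow, and 1.06 against all recurring H3K36me2 peaks. The cause of these shifts was not tested.

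A pairing of samples by replicate number was not evident in the lists. Deviations from the group means correlated at −0.0122 for the H3K36me2 numbers (over windows of 100 kb). For CTD replicates 1, 2 and 3 (over domains) they correlated at −0.0501, 0.0610 and −0.124. CTD pairs of unlike number lay between −0.137 and 0.175. These values cannot tell whether the samples were processed in pairs. With the replicate number as a block, the ratios of 0.533 and 0.498 had an exact sign-flip p = 0.5. That value is the smallest that 2 replicate numbers can give. The CTD differences of 1.24 points and 0.119 in the ratio had an exact sign-flip p = 0.75. With only 2 or 3 replicate numbers this test cannot reach a small p, so it cannot decide whether a block matters.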
